A study of Mus musculus with 6 samples.

Results

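The TNF ligand and receptor superfamily was followed through RNA sequencing of mouse colon with and without chronic colitis. Members were taken by symbol: Tnf itself and the genes named Tnfsf (ligands) or Tnfrsf (receptors) with a number, which gave 31 of the 24421 genes listed for each sample, 12 ligands and 19 receptors. Relatives with other names, such as Fas, Cd40 and Ltb, are treated with the rest of the pathway below.

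Ligands of this family are mostly trimeric membrane proteins that can be cut free from the cell surface, and their receptors either recruit TRAF adaptors, which lead to NF-kappaB and MAP kinases, or carry a death domain that can lead to apoptosis. Some receptors are decoys that bind ligand without signalling. In the gut, TNF is a target of antibody therapy in inflammatory bowel disease, BAFF and APRIL sustain B cells and plasma cells, and RANKL drives the M cells of lymphoid follicles and supports lymphoid organ formation.

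All 6 samples were colon tissue of C57BL/6 mice with a labelled age of 7 weeks. The DSS group held 3 samples from mice with chronic colitis brought on by dextran sulfate sodium (DSS), a sulfated polysaccharide toxic to the colonic epithelium, and the control group held 3. The labels do not state the dosing schedule, the stretch of colon or how control mice were handled. They also do not say that each sample is its own animal, and p-values then reflect sample spread that may be technical. Values are FPKM, fragment counts scaled for transcript length and library size, and so can be compared between genes. Read depth is unknown.

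Epithelial markers were present in all samples. The summed level of 8 epithelial markers was 5295 to 6875 FPKM in DSS colon, against 9276 to 13160 FPKM in the controls. Krt8 alone had 2405 to 2751 FPKM in DSS colon, against 4088 to 5592 FPKM in the controls. By the test described below 2 of the 8, Krt8 and Krt19, were lower and 0 higher. Epcam, Krt20 and Vil1 overlapped between groups. Samples were closer to each other within control colon (correlations of 0.971 to 0.986) than within DSS (0.936 to 0.961). Gapdh, which every cell uses, was listed at 0 in 1 sample, so a listed 0 can be a failed estimate. The median log2 fold change over all 12348 tested genes was 0.13, and -0.0003 with median-of-ratios scaling. Over all genes 783 were higher and 316 lower, against 529 and 513 with that scaling.

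Tnf and Tnfrsf9 were the members that rose in DSS colon. Tests used limma on log2(FPKM + 1) with Benjamini-Hochberg adjustment over all tested genes and a threshold of 0.05. The added 1 FPKM makes the fold changes of low genes understated. To be tested a gene needed at least 1 FPKM in at least 3 samples, and 20 of the 31 members met this, 7 ligands and 13 receptors. Of these 20, 2 rose and 0 fell, where 6.34% of all tested genes were higher and 2.56% lower. At an unadjusted limma p under 0.05, 9 were higher and 2, Tnfsf12 and Tnfrsf21, were lower, where 20.3% of all tested genes were higher and 8.0% lower. A total of 5 members (Tnf, Tnfrsf4, Tnfrsf9, Tnfsf9 and Tnfsf11) met the filter in all DSS samples and in no control sample, so counts over the tested members are descriptions only.

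**Figure D1:**
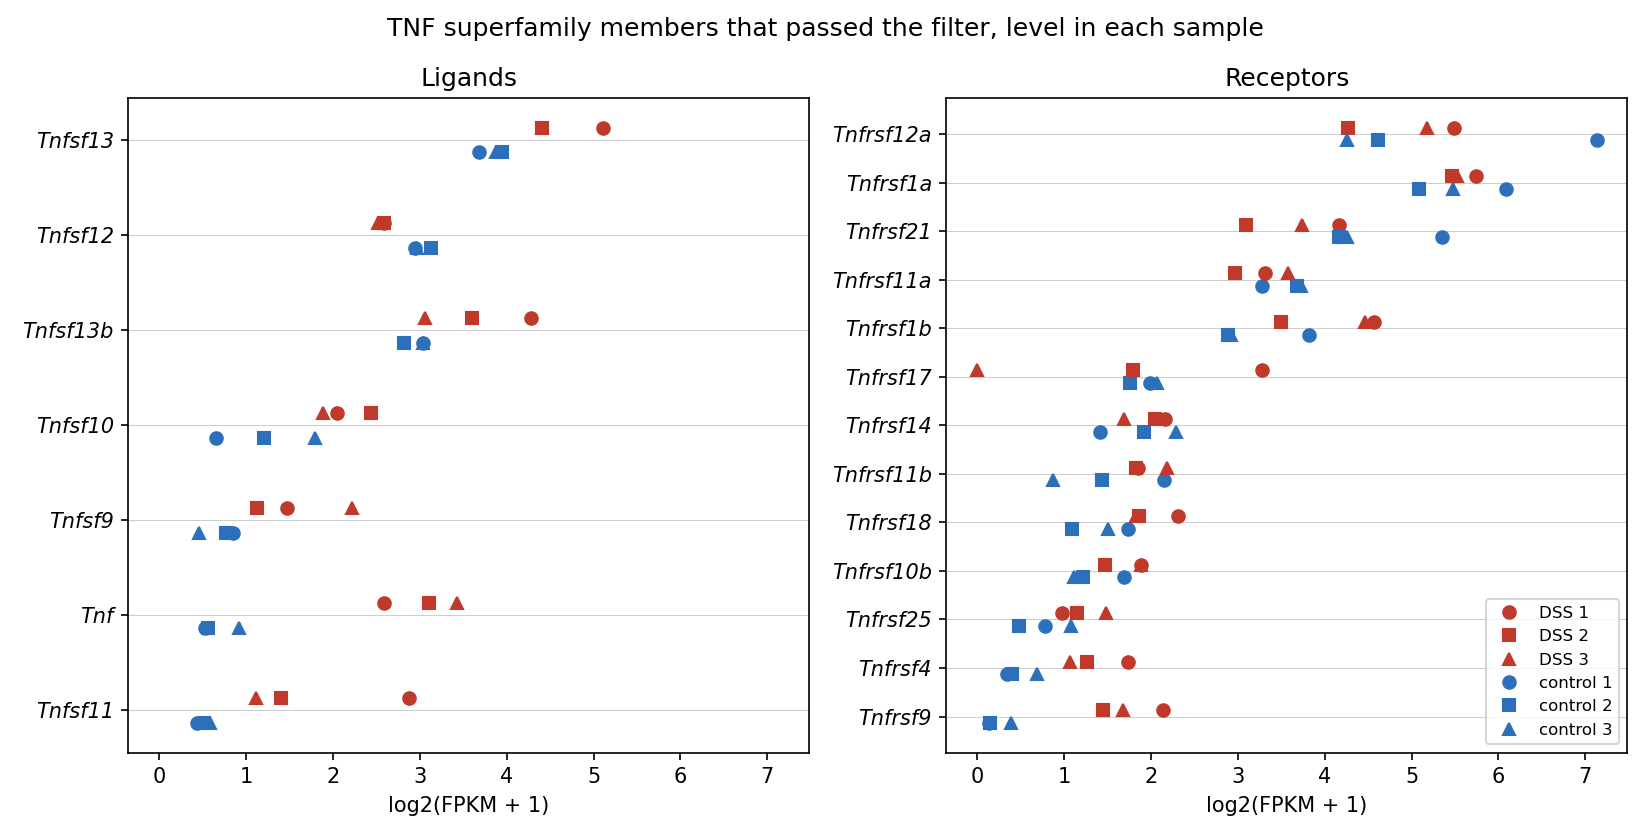
Level of the 20 tested members in each sample, as log2(FPKM + 1) on the horizontal axis, with ligands on the left and receptors on the right, red for DSS and blue for control, and a marker shape for each replicate number. Tnf and Tnfrsf9 show the 3 DSS samples well to the right of the 3 control samples, while Tnfrsf1a overlaps and Tnfrsf12a is highest in control 1.

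Tnf encodes the founding cytokine of the family, made chiefly by macrophages and T cells. Its level was 5.01, 7.59 and 9.80 FPKM in DSS 1, 2 and 3 and 0.438, 0.472 and 0.891 FPKM in control 1, 2 and 3. Every DSS sample was thus above every control sample, with means of 7.47 ± 2.40 and 0.601 ± 0.253 FPKM (SD, n = 3 each), a ratio of means of 12.4. The log2 fold change was 2.37 ± 0.25 SE (95% interval 1.79 to 2.96, limma adjusted p = 0.00236). In the order of mean levels among the 31 members Tnf stood at place 19 in control colon and at place 8 in DSS colon.

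Tnfrsf9 encodes CD137, a costimulatory receptor of activated T cells and NK cells. It had 3.38, 1.72 and 2.20 FPKM in the DSS samples and 0.0963, 0.104 and 0.304 FPKM in the control samples. The groups were apart, and the log2 fold change was 1.53 ± 0.22 SE (95% interval 1.03 to 2.04, limma adjusted p = 0.00769). With no filter on low values, where passing does not depend on the DSS samples, both genes still passed, Tnf at adjusted p = 0.00819 and Tnfrsf9 at adjusted p = 0.0173 (limma). Leukocyte markers were read beside these genes, and not all of them rose. Of 10 T and NK cell markers found, 5 were tested and 4 rose. The summed level of the 10 was 45.9 to 177 FPKM in DSS colon, against 6.02 to 9.04 FPKM in the controls. Gzma alone had 22.0, 117 and 21.5 FPKM in DSS colon, against 1.81, 0.391 and 0.917 FPKM in the controls. Cd2 and Ncr1 overlapped between groups with lower means in DSS colon. Cd3e, Cd4 and Foxp3 overlapped with higher means, and the other markers were higher in every DSS sample. Of 11 macrophage and monocyte markers 3 rose and 0 fell, with sums of 660.0 to 883.7 and 460.1 to 564.9 FPKM. Cd68 and Csf1r of this list overlapped between groups with lower means in DSS colon, and its other markers had higher means there. All 10 neutrophil markers rose, with sums of 4112 to 6992 and 7.11 to 29.9 FPKM. In whole tissue, more cells of a type and more RNA per cell cannot be told apart, and the part of these cells in the members' values was not tested.

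The promoters of the members that rose are shown because these are the members that passed the test. Each sequence gives the 250 bases before the RefSeq start site in the GRCm38.p6 build, read 5′ to 3′ on the gene's strand. Tnf lies on chromosome 17 (minus strand), within 35199381 to 35202007 in GENCODE vM21, and its window is chr17:35202008-35202257. Tnfrsf9 lies on chromosome 4 (plus strand), within 150914562 to 150946102, and the window before the second of its RefSeq starts is chr4:150927749-150927998. The window before its first RefSeq start, chr4:150919905-150920154, held neither motif and is not printed. Capitals mark TATAAA in Tnf and overlapping matches to the NF-kappaB consensus in Tnfrsf9.
Tnf: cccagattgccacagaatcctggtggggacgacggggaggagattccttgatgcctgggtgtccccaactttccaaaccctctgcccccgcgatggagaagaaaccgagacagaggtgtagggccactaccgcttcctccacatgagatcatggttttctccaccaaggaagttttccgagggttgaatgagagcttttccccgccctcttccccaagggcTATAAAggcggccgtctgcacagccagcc
Tnfrsf9: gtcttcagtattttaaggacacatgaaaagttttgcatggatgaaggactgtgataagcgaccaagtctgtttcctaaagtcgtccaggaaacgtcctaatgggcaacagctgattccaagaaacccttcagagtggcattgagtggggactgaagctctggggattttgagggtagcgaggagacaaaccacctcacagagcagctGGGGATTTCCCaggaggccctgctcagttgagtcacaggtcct
TATAAA lay 29 bases before the Tnf start, and the NF-kappaB consensus matches began 43 and 42 bases before this Tnfrsf9 start. Both motifs were sought on both strands. The NF-kappaB consensus was in 2 of the 24 members with a promoter sequence, Tnfrsf8 and Tnfrsf9 (8.33%), and in 4.46% of 27025 genes. TATAAA was in 5 members (20.8%), which were Tnf, Tnfrsf17, Tnfrsf23, Tnfsf11 and Tnfsf18, and in 14.3% of genes.

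The receptors of TNF did not pass the test. Tnfrsf1a, the widely expressed death domain receptor, had 52.7, 43.2 and 44.9 FPKM in DSS colon, against 66.7, 32.9 and 43.6 FPKM in the controls. These ranges overlapped, with means of 46.9 ± 5.08 and 47.7 ± 17.3 FPKM, and the log2 fold change was 0.03 with a 95% interval of -0.56 to 0.62 (limma adjusted p = 0.951). Its sign changed with scaling. Tnfrsf1b, the receptor of leukocytes and endothelium that signals through TRAF2, had 22.7, 10.3 and 21.1 FPKM in DSS colon, against 13.1, 6.38 and 6.58 FPKM in the controls. Control 1 lay above DSS 2, and the log2 fold change was 0.97 ± 0.36 SE (95% interval 0.12 to 1.82, limma adjusted p = 0.135). As a description, the level of Tnfrsf1b over that of Tnfrsf1a within a sample was 0.431, 0.238 and 0.471 in DSS and 0.196, 0.194 and 0.151 in control colon, so the samples did not overlap in this ratio.

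**Figure D2:**
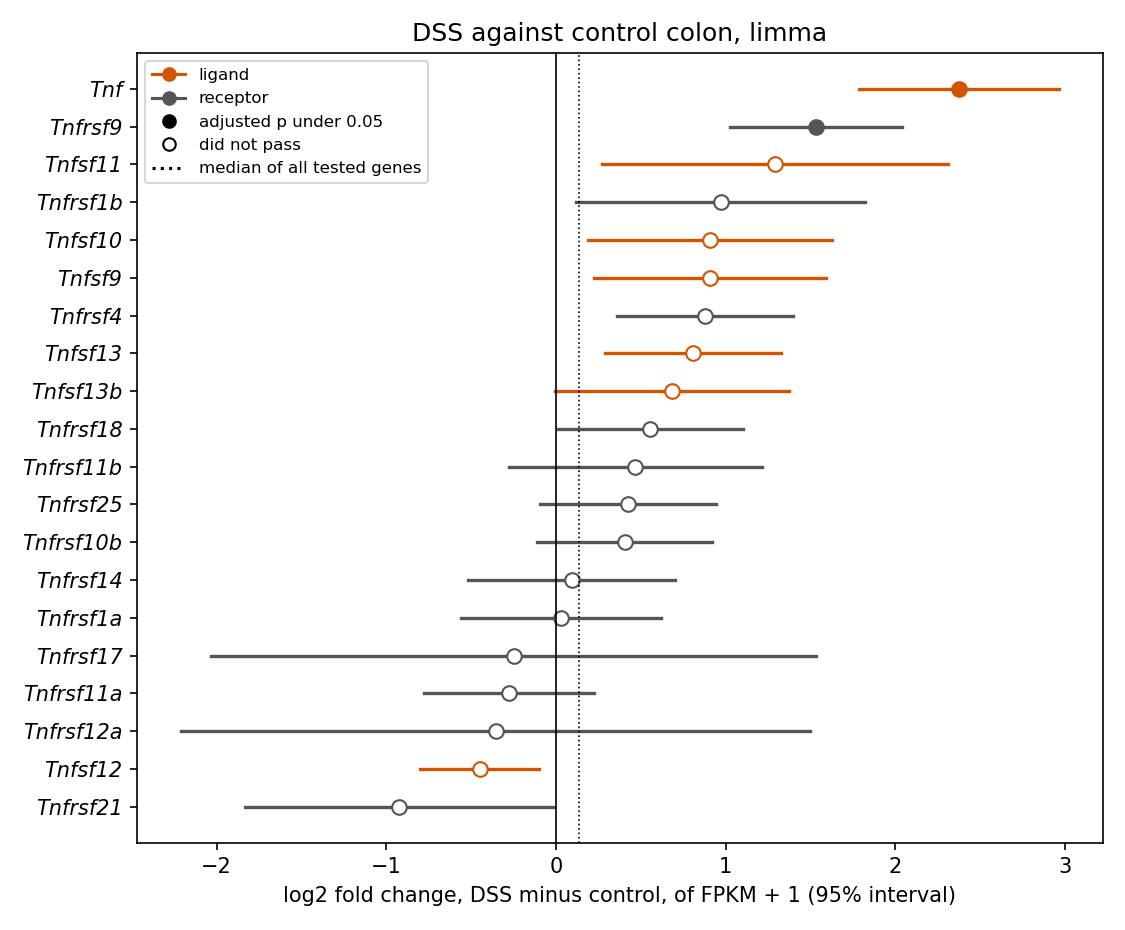
Log2 fold change of FPKM + 1, DSS minus control, for the 20 tested members, with 95% intervals from limma. Orange marks ligands and grey receptors, filled points passed at an adjusted p under 0.05, and the dotted line is the median of all tested genes, 0.13. Tnf at 2.37 and Tnfrsf9 at 1.53 are the filled points, and the intervals of Tnfrsf12a and Tnfrsf17 are the widest.

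Of the other genes of T cell costimulation, Tnfrsf4, Tnfrsf18 and Tnfsf9 were higher in every DSS sample than in every control sample, as were 25.6% of all tested genes, and none of these 3 passed the test. Tnfrsf4, which encodes OX40 of activated T cells, had 2.33, 1.39 and 1.09 FPKM in DSS colon, against 0.262, 0.316 and 0.610 FPKM in the controls. The groups were apart, with a log2 fold change of 0.88 ± 0.22 SE at limma adjusted p = 0.0518, and over the alternatives adjusted p ran from 0.0491 to 0.157. Its neighbour on chromosome 4, Tnfrsf18, encodes GITR of regulatory and activated T cells. It had 3.98, 2.63 and 2.54 FPKM in DSS colon, against 2.33, 1.13 and 1.85 FPKM in the controls, also apart (log2 fold change 0.55 ± 0.23 SE, limma adjusted p = 0.171). Tnfsf9, the ligand of CD137, had 1.76, 1.17 and 3.65 FPKM in DSS colon, against 0.799, 0.708 and 0.375 FPKM in the controls. All DSS samples were higher, and the log2 fold change was 0.91 ± 0.29 SE (limma adjusted p = 0.0958). Exons of Tnfrsf18 and Tnfsf9 overlap the annotated genes Gm16008 and Gm11110, and without strand their reads cannot be told apart. Tnfrsf25, the death domain receptor of TL1A on lymphocytes, had 0.966, 1.21 and 1.80 FPKM in DSS colon, against 0.715, 0.395 and 1.11 FPKM in the controls, which overlapped (limma adjusted p = 0.258). Tnfrsf14, which encodes HVEM, was at 2.22 to 3.46 FPKM in DSS colon, against 1.65 to 3.89 FPKM in the controls (log2 fold change 0.09, 95% interval -0.52 to 0.70), and its sign changed with scaling.

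The ligands that sustain B cells and plasma cells were higher in each DSS sample than in each control sample, without passing the test. Of all tested genes 25.6% were higher in this way. Tnfsf13, which encodes APRIL, had 33.5, 20.1 and 20.2 FPKM in DSS colon, against 11.8, 14.4 and 13.7 FPKM in the controls (log2 fold change 0.81 ± 0.22 SE, limma adjusted p = 0.0647). Tnfsf13b, which encodes BAFF, had 18.4, 11.1 and 7.34 FPKM in DSS colon, against 7.23, 6.06 and 7.18 FPKM in the controls, so DSS 3 lay close to the controls (log2 fold change 0.68 ± 0.30 SE, limma adjusted p = 0.18). Their receptors did not follow the group. Tnfrsf17, which encodes BCMA of plasma cells, had 8.73 and 2.47 FPKM in DSS 1 and 2, was listed at 0 in DSS 3, and had 2.97, 2.39 and 3.21 FPKM in the controls (limma adjusted p = 0.861). Tnfrsf13b, which encodes TACI, was below the filter, at 1.85 and 0.459 FPKM in DSS 1 and 2, listed at 0 in DSS 3, and 0.374 to 0.842 FPKM in control colon. In both receptors DSS 1 was the highest of all samples. DSS 3 was the lowest, at a listed 0, which can be a failed estimate.

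DSS 1 also differed from the other DSS samples in the markers of B cells and plasma cells. The summed level of 11 such markers was 2730 FPKM in DSS 1, 602.9 in DSS 2 and 201.4 in DSS 3, against 607.9 to 857.6 FPKM in control colon, and none of the 7 tested markers passed. Among the 20 tested members DSS 1 was the highest DSS sample for 13 and the lowest for 2. The share of such cells in the values of these members was not tested.

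**Figure D3:**
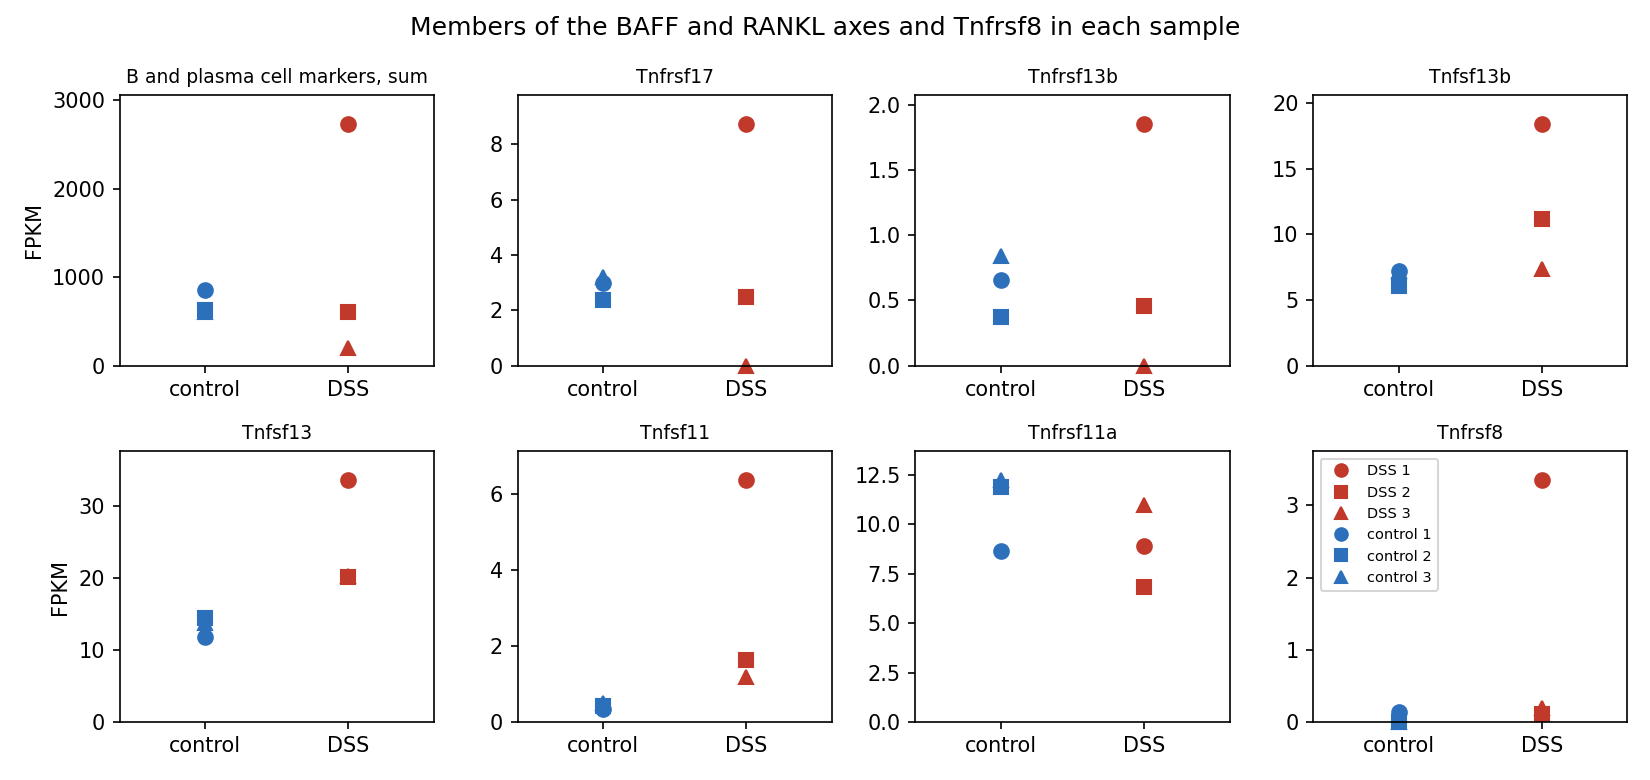
FPKM in each sample for the summed B and plasma cell markers and for 7 members, with control on the left and DSS on the right of each panel and a marker shape for each replicate number. DSS 1 (red circle) is the highest sample in all panels but that of Tnfrsf11a, for instance at 6.35 FPKM for Tnfsf11 and 3.35 FPKM for Tnfrsf8.

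DSS 1 was also the highest sample for the RANKL gene, though not for its receptors. Tnfsf11, which encodes RANKL, had 6.35, 1.64 and 1.17 FPKM in DSS colon, against 0.349, 0.427 and 0.492 FPKM in the controls. The groups were apart, with a log2 fold change of 1.29 ± 0.43 SE (95% interval 0.27 to 2.31, limma adjusted p = 0.109). Without DSS 1, whose value is the highest, the log2 fold change was 0.75 and the limma test passed at adjusted p = 0.0357, in a fit where 1165 of all genes were higher in place of 783. Tnfrsf11a, its receptor RANK, was at 8.91, 6.81 and 10.97 FPKM in DSS colon, against 8.66, 11.9 and 12.2 FPKM in the controls, which overlapped (log2 fold change -0.28, 95% interval -0.78 to 0.22). The soluble decoy Tnfrsf11b, osteoprotegerin, had 2.61, 2.53 and 3.53 FPKM in DSS colon, against 3.43, 1.69 and 0.831 FPKM in the controls (limma adjusted p = 0.376). The level of ligand over decoy was 2.43, 0.646 and 0.33 in DSS and 0.102, 0.252 and 0.592 in control colon, and these overlapped. Among markers of M cells, whose formation RANKL drives, Gp2 was at 1.80, 0.0750 and 0 FPKM in DSS colon, against 0.596, 0.243 and 1.70 FPKM in the controls. Spib was at 4.96, 1.22 and 0.690 FPKM in DSS colon, against 2.65, 1.41 and 3.65 FPKM in the controls. Ccl9 and Tnfaip2 were the M cell markers that rose, of 4 tested, named after their values were seen, and both are also made by other cells.

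Tnfsf12 and Tnfrsf21 were the members with lower means in DSS colon at an unadjusted p under 0.05. Tnfsf12, which encodes TWEAK, had 4.996, 4.999 and 4.737 FPKM in DSS colon, against 6.68, 7.76 and 6.82 FPKM in the controls. All DSS samples were lower, with a log2 fold change of -0.45 ± 0.15 SE (limma adjusted p = 0.104). It passed at limma adjusted p = 0.0498 with median-of-ratios scaling, under which 4.28% of genes were higher and 4.15% lower, and adjusted p ran from 0.0498 to 0.268 over all alternatives. Tnfsf12 and Tnfsf13 are neighbours on chromosome 11 and share exons with the read-through gene Tnfsfm13, and Tnfsf13 also overlaps the antisense gene Tnfsf13os, so the values of this pair are uncertain. Tnfrsf21, the death domain receptor DR6, had 16.9, 7.56 and 12.3 FPKM in DSS colon, against 39.7, 16.9 and 18.1 FPKM in the controls. DSS 1 and control 2 were nearly equal, and the log2 fold change was -0.92 ± 0.39 SE (limma adjusted p = 0.173).

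Control 1 stood apart for several receptors. Tnfrsf12a, the TWEAK receptor Fn14 that is induced in injured epithelium, had 43.7, 18.2 and 35.1 FPKM in DSS colon, against 139, 23.4 and 18.0 FPKM in the controls. Its log2 fold change was -0.36 with a 95% interval of -2.2098 to 1.4975 (limma adjusted p = 0.801), and without control 1 it was 0.54 (adjusted p = 0.434). Control 1 was also the highest control sample for Tnfrsf21, Tnfrsf1a and Tnfrsf1b. Among the 20 tested members it was the highest control sample for 9 and the lowest for 9, and control 3 was the highest for 9. The summed epithelial markers were 13160 FPKM in control 1 and 9506 and 9276 FPKM in control 2 and 3. Their part in these values was not tested.

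Tnfsf10, which encodes the apoptosis-inducing ligand TRAIL, had 3.15, 4.41 and 2.69 FPKM in DSS colon, against 0.573, 1.30 and 2.47 FPKM in the controls. The groups were apart by a small margin between DSS 3 and control 3, and the test did not pass (log2 fold change 0.91 ± 0.31 SE, limma adjusted p = 0.109). Its mouse death receptor Tnfrsf10b had 2.69, 1.78 and 2.68 FPKM in DSS colon, against 2.22, 1.33 and 1.16 FPKM in the controls, which overlapped (limma adjusted p = 0.272). Tnfrsf10b has a near-identical copy, Gm15574, so its values are uncertain.

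The other 11 members did not reach the filter, and no sample was above 3.35 FPKM. In 3 of them, Tnfsf14, Tnfsf8 and Tnfrsf23, all DSS samples were above all control samples, in Tnfrsf19 all were below, and 7 overlapped. Of the 6710 genes below the filter with a value above 0 in any sample, 9.42% were higher and 5.98% lower in every DSS sample. Tnfsf14, which encodes LIGHT of activated T cells, had 1.37, 0.871 and 0.550 FPKM in DSS colon, against 0.0892, 0.0945 and 0.0790 FPKM in the controls. Tnfrsf23, a mouse decoy receptor for TRAIL, had 1.80, 0.743 and 1.87 FPKM in DSS colon, against 0.271, 0.160 and 0.228 FPKM in the controls. Tnfrsf19, which encodes TROY of intestinal stem cells, had 0.379, 0.313 and 0.491 FPKM in DSS colon, against 0.885, 1.37 and 1.25 FPKM in the controls. With the filter lowered to 0.1 FPKM in at least 3 samples these 3 genes passed, Tnfsf14 at limma adjusted p = 0.0313 and Tnfrsf23 at 0.0364, higher, and Tnfrsf19 at 0.0436, lower. Tnfsf14 met that filter through DSS samples alone, since no control sample reached 0.1 FPKM. That filter gave 4 members higher and 1 lower of 30 tested, against 4.86% and 2.16% of the 15630 genes it kept. These counts are thus descriptions only. With no filter Tnfsf14 passed at limma adjusted p = 0.0495, and Tnfrsf23 (0.0613) and Tnfrsf19 (0.0619) did not. That left 3 members higher and 0 lower, where 2.82% and 1.32% of 19058 genes were.

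**Figure D4:**
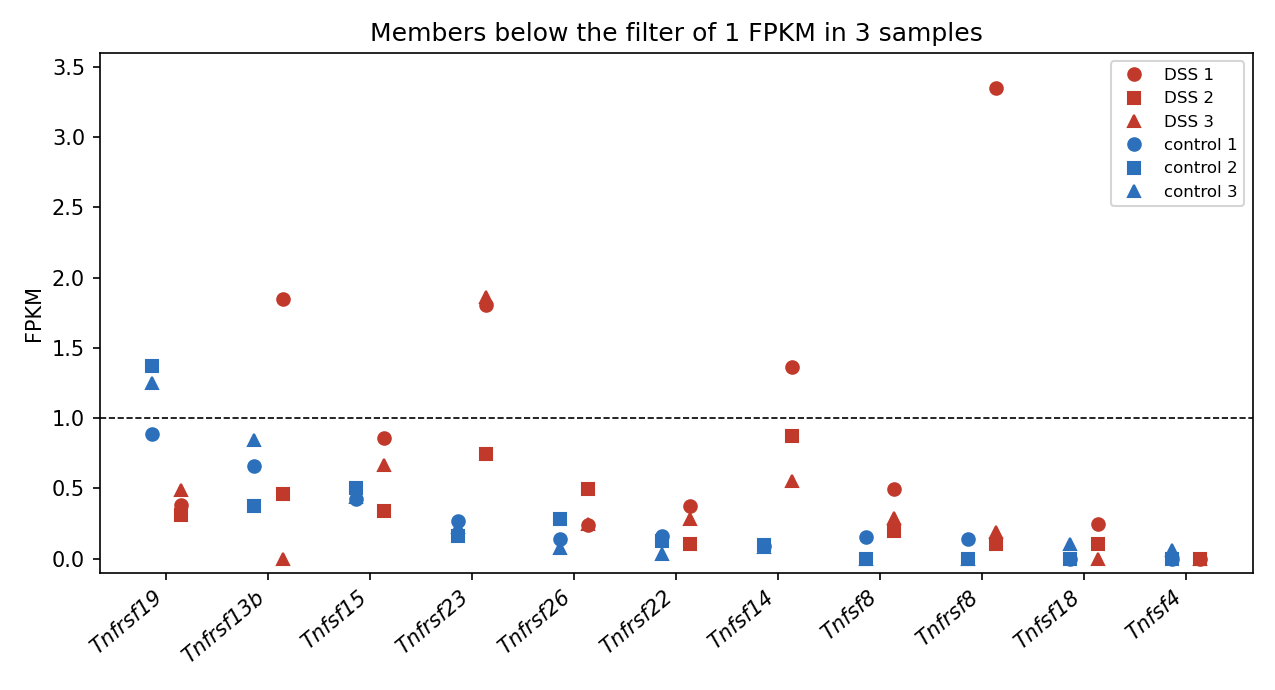
FPKM in each sample for the 11 members below the filter, ordered by mean level in control colon, with control (blue) left and DSS (red) right of each position and a dashed line at 1 FPKM. Tnfrsf19 is lower in all DSS samples, Tnfrsf23, Tnfsf14 and Tnfsf8 are higher, and Tnfrsf8 is above 1 FPKM in DSS 1 alone, at 3.35 FPKM.

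Tnfrsf8, which encodes CD30 of activated lymphocytes, had 3.35 FPKM in DSS 1, 0.103 and 0.190 FPKM in DSS 2 and 3, 0.138 FPKM in control 1 and a listed 0 in the other control samples. Its ligand Tnfsf8 had 0.495, 0.195 and 0.286 FPKM in DSS and 0.154 FPKM in control 1, with a listed 0 in control 2 and 3. The TL1A gene Tnfsf15 was at 0.337 to 0.856 FPKM in DSS colon, against 0.422 to 0.502 FPKM in the controls. Tnfsf18, the GITR ligand, reached at most 0.243 FPKM, and the OX40 ligand Tnfsf4 was listed at 0 in 5 samples and at 0.0577 FPKM in control 3. Tnfrsf22 and Tnfrsf26 lie beside Tnfrsf23 on chromosome 7. They were at 0.106 to 0.375 and 0.235 to 0.497 FPKM in DSS colon, against at 0.0295 to 0.163 and 0.0781 to 0.278 FPKM in the controls. Exons of Tnfrsf23 and Tnfrsf26 overlap the annotated gene E230032D23Rik, and Tnfrsf22 shares stretches with 19 other annotated genes.

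Among the tested ligands the groups did not overlap in any of the 7, with 6 higher in DSS and Tnfsf12 lower. Among the 13 tested receptors 3 (Tnfrsf4, Tnfrsf9 and Tnfrsf18) were higher in all DSS samples and 10 overlapped. The ligands Tnf, Tnfsf9 and Tnfsf11 and the receptors Tnfrsf4 and Tnfrsf9 met the filter through DSS samples alone. These counts, and the medians below, thus partly follow from the filter. Of the ligands below the filter, Tnfsf14 and Tnfsf8 were higher in all DSS samples, and Tnfsf15, Tnfsf18 and Tnfsf4 overlapped. Over all tested genes 25.6% were higher in every DSS sample and 9.51% were lower in every one. The median log2 fold change was 0.91 over the tested ligands, 0.40 over the receptors and 0.13 over all tested genes. Whether ligands and receptors differ was not tested. The median coefficient of variation between replicates was 32.2% in DSS and 38.3% in control colon.

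In control colon the order of mean levels began with Tnfrsf12a (60.2 ± 68.4 FPKM), Tnfrsf1a, Tnfrsf21 (24.9 ± 12.8 FPKM), Tnfsf13 (13.3 ± 1.36 FPKM) and Tnfrsf11a (10.9 ± 1.97 FPKM). The SD of Tnfrsf12a exceeded its mean, so its place against Tnfrsf1a is not fixed, and Tnfsf13 and Tnfrsf11a differed by about their spread. In DSS colon it began with Tnfrsf1a, Tnfrsf12a (32.4 ± 12.97 FPKM), Tnfsf13 (24.6 ± 7.71 FPKM) and Tnfrsf1b (18.0 ± 6.76 FPKM), and Tnfsf13 differed from Tnfrsf12a and from Tnfrsf1b by less than the larger SD of each pair. Tnfrsf1a (46.9 ± 5.08 FPKM) and Tnfrsf12a differed by more than either SD.

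**Figure D5:**
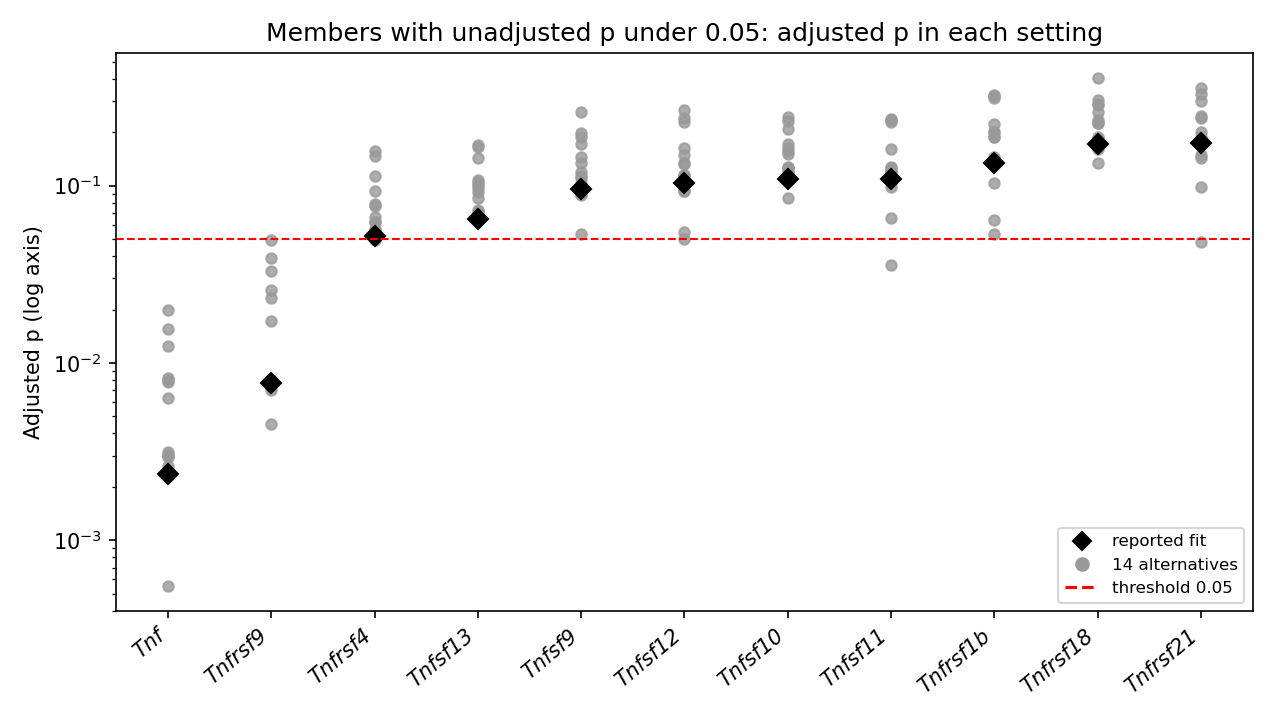
Limma adjusted p on a log axis for the 11 members with an unadjusted p under 0.05, with the reported fit as a black diamond and the 14 alternatives as grey points. All points of Tnf and Tnfrsf9 lie under the dashed threshold of 0.05, and Tnfrsf4, Tnfsf12, Tnfsf11 and Tnfrsf21 cross it in 1 alternative each.

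The rest of the pathway was read from 5 lists with 90 genes in all, of which 77 were tested, 20 rose and 0 fell (3 lower at an unadjusted limma p under 0.05). The 20 are 26.0% of those tested, against 6.34% of all tested genes. Of the 20, 13 are on the list of genes known to be induced by TNF. All 5 lists were chosen with earlier results of these data known, so this share is not independent evidence. The count was 9 without DSS 3 and 12, 8 and 10 without control 1, 2 or 3, and over all tested genes the count higher went from 783 to 314, 322, 209 and 213 in the same fits. Of 14 superfamily members with other names 4 were tested and Fas rose, the death receptor of FasL. Fas had 16.8, 21.9 and 18.0 FPKM in DSS colon, against 6.96, 7.86 and 10.2 FPKM in the controls, groups that were apart (log2 fold change 1.10 ± 0.19 SE, limma adjusted p = 0.0151, up to 0.073 over all alternatives, lost without DSS 3, control 1 or control 2). Ltbr, the lymphotoxin beta receptor, was at 39.9 to 45.7 FPKM in DSS colon, against 39.6 to 42.3 FPKM in the controls (95% interval of the log2 fold change -0.27 to 0.35). Its ligand gene Ltb had 23.3, 5.52 and 5.46 FPKM in DSS colon, against 4.84, 4.69 and 13.3 FPKM in the controls. Cd40 had 2.67, 1.16 and 2.84 FPKM in DSS colon, against 1.55 to 1.81 FPKM in the controls (limma adjusted p = 0.567).

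Of 26 receptor-proximal adaptors and ubiquitin enzymes Birc2 rose and none fell. Birc2, a ubiquitin ligase of the TNF receptor complex, had 16.4, 19.3 and 17.3 FPKM in DSS colon, against 6.26, 8.78 and 9.78 FPKM in the controls (log2 fold change 1.03 ± 0.19 SE, limma adjusted p = 0.0191, up to 0.072, lost without DSS 3, control 2 or control 3). Tnip1, a partner of the deubiquitinase A20, had 17.7, 9.46 and 12.8 FPKM in DSS colon, against 23.6, 22.1 and 30.7 FPKM in the controls. It missed the threshold (limma adjusted p = 0.0569) and passed, lower, without DSS 1 at 0.0151 and with upper-quartile and median-of-ratios scaling at 0.0346 and 0.0308 (0.0151 to 0.186 over all alternatives). Traf1, an adaptor induced by NF-kappaB, had 4.48, 2.50 and 2.86 FPKM in DSS colon, against 1.39, 1.54 and 1.92 FPKM in the controls (limma adjusted p = 0.0919). Cyld, a deubiquitinase that restrains NF-kappaB, had 6.75 ± 0.384 FPKM in DSS colon, against 4.18 ± 0.389 FPKM in the controls (limma adjusted p = 0.0582).

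Of 19 tested kinases and NF-kappaB factors 3 rose, all near the threshold. They were Map3k14, the NF-kappaB-inducing kinase that acts downstream of BAFF, RANKL and lymphotoxin receptors (3.64, 2.47 and 4.01 FPKM in DSS colon, against 1.47, 1.35 and 1.70 FPKM in the controls, limma adjusted p = 0.0481), Tab2 (adjusted p = 0.0441) and Nfkbiz (adjusted p = 0.0481). Nfkbiz, an inducible nuclear cofactor of NF-kappaB, had 33.8 ± 6.83 FPKM in DSS colon, against 14.8 ± 5.197 FPKM in the controls. Tab2, an adaptor of the TAK1 kinase, had 26.2 ± 2.63 and 16.6 ± 1.56 FPKM. None of the 3 passed under any of the 3 other scalings, at either looser filter or without DSS 3 or any control sample. Adjusted p reached 0.154 for Map3k14, 0.139 for Tab2 and 0.15 for Nfkbiz. Map3k8 missed the threshold (limma adjusted p = 0.0529), at 3.29 ± 0.749 FPKM in DSS colon, against 1.46 ± 0.315 FPKM in the controls.

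Of 8 genes of ligand shedding 2 rose, 0 fell and 6 overlapped between groups. Adam10, a surface protease, had 35.6, 35.2 and 37.8 FPKM in DSS colon, against 20.9, 23.2 and 24.0 FPKM in the controls (log2 fold change 0.65 ± 0.13 SE, limma adjusted p = 0.0275). Sppl2a, an intramembrane protease that cuts the stub left by TNF shedding, had 74.8, 121 and 73.6 FPKM in DSS colon, against 45.0, 43.5 and 42.5 FPKM in the controls (limma adjusted p = 0.0313). Neither passed when DSS 3 or any of the control samples was left out, with limma adjusted p up to 0.101 and 0.115. Sppl2a also did not pass with no filter (0.0593) or with upper-quartile (0.0726) and median-of-ratios (0.0849) scaling. Rhbdf2 (5.46 ± 1.45 and 3.69 ± 0.923 FPKM) and Sppl2b (7.55 ± 1.28 and 6.42 ± 1.32 FPKM) overlapped between groups and did not pass (limma adjusted p = 0.252 and 0.529). Adam17 also overlapped, with 4.42, 8.75 and 10.4 FPKM in DSS colon, against 8.15, 9.80 and 8.87 FPKM in the controls (limma adjusted p = 0.63). So did Rhbdf1, Frmd8 and Timp3 (limma adjusted p = 0.782, 0.957 and 0.777).

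Of 23 tested genes known to be induced by TNF 13 rose and 0 fell (1, Junb, was lower at an unadjusted limma p under 0.05), with a median log2 fold change of 1.87. The groups overlapped in 6 that did not pass. These were Nfkbia, Tnfaip3, Birc3, Ccl20, Cxcl1 and Cxcl5 (limma adjusted p = 0.304, 0.741, 0.487, 0.498, 0.157 and 0.198). Birc3 and Ccl20 had lower means in DSS colon, and the other 4 higher means. The count was 8 to 14 with 1 sample left out, the lowest without control 2. Il6 had 11.4, 8.95 and 9.37 FPKM in DSS colon, against 0.245, 0.214 and 0 FPKM in the controls (log2 fold change 3.24 ± 0.18 SE, limma adjusted p = 0.000217). Il1b had 125, 338 and 284 FPKM in DSS colon, against 4.37, 2.03 and 1.86 FPKM in the controls. Mmp9, a gelatinase also stored by neutrophils, had 5.54 ± 1.06 and 0.791 ± 0.166 FPKM, and the chemokine gene Cxcl10 had 40.9 ± 19.7 and 4.13 ± 1.20 FPKM. These genes respond to other cytokines too, and several are expressed by the leukocytes whose markers rose, whose part was not tested. The list was chosen with earlier results of these data known, so its direction is not independent evidence.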

How the data were processed

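RNA was sequenced from 3 DSS and 3 control colon samples, grouped by their titles. The deposited values are FPKM for 24421 gene rows, per the file headers. TopHat2 2.1.1 and mm10 are named in the submitters' processing notes, and for the FPKM program and its gene models the answer is: not given in the sources used here. Per the labels' protocols, poly(A) isolation and a non-directional module were used, so strand was taken as unrecorded. Ratios of low values between samples did not pile up at single-read steps (no bin 0.02 wide on the log2 scale held over 1.4% of genes). Depth stays unknown, and counting intervals are not given. No samples were identical.

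Because the files hold FPKM, limma 3.58.1 in R 4.3.3 was used: log2(FPKM + 1), trend and robust moderation, two-sided, for the 12348 genes reaching 1 FPKM in 3 or more samples. The script was tested on simulated data. The 14 alternatives covered pseudocount, filter, scaling, moderation, the replicate block and each sample left out. Every member may be named, and up to 4 genes with the smallest p, or those behind a count of 5 or fewer, in each list. Genes of the shedding and TNF-induced lists whose groups overlapped are named too. Members and lists were chosen with earlier results of these data known. A receptor of the family is not reported here. Positions are from GENCODE vM21 (GRCm38, which mm10 names). Near-identical copies (95% over 200 bases) were sought with BLAST+ 2.17.0. Promoters are from RefSeq, for 24 of 31 members. Figures were drawn with matplotlib 3.10.9 in Python 3.11.15.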

Additional observations from a re-analysis of the deposited data

How the results depend on the processing

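Tnf and Tnfrsf9 passed in all 14 alternatives, with adjusted p of 0.000553 to 0.02 and 0.00452 to 0.0493. The count of members higher was 2 in the reported fit, and 4 with the filter at 0.1 FPKM (Tnfsf14 and Tnfrsf23 added). It was 3 with no filter (Tnfsf14 added) and 3 without trend and robust moderation (Tnfrsf4 added). The count lower was 0, and 1 with that filter (Tnfrsf19), with median-of-ratios scaling (Tnfsf12) and with the replicate block (Tnfrsf21, adjusted p = 0.0482). With 1 sample left out these counts were 2 to 3 and 0 to 0, while over all tested genes they ran from 209 to 1165 higher and 79 to 606 lower, against 783 and 316. For the pathway lists the count higher was 20, and 8 to 21 with 1 sample left out. The count lower was 0, 2 with upper-quartile and with median-of-ratios scaling, and 0 to 3 with 1 sample left out. The replicate block left 2 members, 18 pathway genes and 640 of all tested genes higher, with 255 lower. Adam10 (adjusted p = 0.0561) and the 3 kinase and NF-kappaB genes did not pass with it. Same-numbered samples deviated together at correlations of 0.082, 0.129 and 0.003, against -0.113 to 0.034 for samples of different number. DSS 1 and DSS 2 correlated best with their own number, and DSS 3 with control 1 (0.034). Whether the numbers mark pairs is not known, and the reported fit did not use them. The cause of these changes was not tested.

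Of 560 values for 40 named genes 480 kept direction and side of the threshold, 54 lost the call, 9 gained one and 17 changed sign, the last in 6 genes that had not passed. Under upper-quartile scaling the log2 fold change was -0.0018 for Tnfrsf14, -0.1028 for Tnfrsf1a and -0.0907 for Ltbr. With median-of-ratios scaling it was -0.0165, -0.1249 and -0.1127, and with scaling to equal sums -0.0252 for Tnfrsf1a and -0.0138 for Ltbr. With 1 sample left out it ran from -0.90 to 0.54 for Tnfrsf12a, -0.14 to 0.30 for Tnfrsf14, -1.04 to 0.60 for Tnfrsf17, -0.20 to 0.30 for Tnfrsf1a, -0.27 to 0.81 for Ltb and -0.0205 to 0.0748 for Ltbr.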
